A study of Mus musculus with 12 samples.

Results

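Interleukin-6 (IL-6) family cytokines and their receptors were examined in lymph node stromal cells (SCs). The members were taken by gene symbol from a list of 9 genes: the ligands Il6, Lif and Il11, the receptor chains Il6ra, Il6st, Osmr and Lifr, the transcription factor Stat3 and its inhibitor Socs3. Of these, 8 were among the 10253 genes of the expression table, and Il11 was not analysed here because no row carries its symbol. All 8 passed the filter on low values.

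Cytokines of this family signal through a shared receptor chain, gp130, which Il6st encodes. A ligand first meets its own partner chain, such as the IL-6 receptor for IL-6 or the LIF receptor for leukaemia inhibitory factor, and the complex then activates the kinase JAK1 and related JAKs, which phosphorylate STAT3. STAT3 switches on Socs3, whose product blocks gp130 and JAK1 in turn. Fibroblastic reticular cells of lymph nodes are a known source of IL-6, and in the study a cluster of reticular cells is named by its expression of Il6 and Cxcl1.

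Non-endothelial SCs of BALB/c mice were sorted as CD45-CD24-CD31-Pdpn+ cells. They came from mesenteric nodes that drain the gut (mLN) or from peripheral nodes that drain the skin (pLN), and their RNA was sequenced in 12 libraries, 3 for each of 4 groups. Mice kept specific pathogen-free (SPF) were 7 to 12 weeks old, and the methods name the BALB/c strain kept under SPF conditions by the CD90.1 allele of Thy1. Germ-free (GF) mice were 6 to 10 weeks old, came from another colony that was founded by caesarean section, and have no allele named. The housing groups therefore differ in colony, in age range and possibly in the Thy1 allele, as well as in microbiota, and these cannot be told apart. The mice were female unless stated otherwise, no treatment was given, and the labels do not say whether a library is 1 animal or a pool, so p-values measure only the spread between these libraries, which may be technical.

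Values are RPKM, read numbers corrected for exon length and for sequencing depth, so levels of different genes are compared per length. Between 4.62 M and 14.1 M reads per library fell on the genes of the table. Lif, the member with the fewest reads, had 72 to 286 per library, where counting alone gives an error of up to 11.8%, and each other member had at least 230. Markers of the sort were checked: Pdpn stood between 53.9 and 80.5 RPKM, the endothelial gene Pecam1 did not exceed 1.58, and of 13 haematopoietic markers 4 were among the rows, with a highest value of 5.21 (Lyz2). Tek, also listed as an endothelial gene, stood at 10.7 to 84.8 RPKM.

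The 300-base promoter windows of Il6 and Socs3, the ligand and the inhibitor whose levels are described at most length here, are shown because each holds a motif of the transcription factors that this pathway is known for. They run from 250 bases before to 50 after the RefSeq start, GRCm38.p6, and capitals mark motif matches. The Il6 window is chr5:30012864-30013163 on the plus strand.
Il6: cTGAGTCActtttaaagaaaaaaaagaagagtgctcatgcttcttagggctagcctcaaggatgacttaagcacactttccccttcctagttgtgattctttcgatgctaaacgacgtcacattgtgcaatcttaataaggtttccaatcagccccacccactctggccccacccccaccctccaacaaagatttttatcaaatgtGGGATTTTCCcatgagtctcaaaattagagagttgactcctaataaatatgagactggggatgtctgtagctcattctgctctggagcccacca
The Socs3 window is chr11:117969317-117969616 on the minus strand.
Socs3: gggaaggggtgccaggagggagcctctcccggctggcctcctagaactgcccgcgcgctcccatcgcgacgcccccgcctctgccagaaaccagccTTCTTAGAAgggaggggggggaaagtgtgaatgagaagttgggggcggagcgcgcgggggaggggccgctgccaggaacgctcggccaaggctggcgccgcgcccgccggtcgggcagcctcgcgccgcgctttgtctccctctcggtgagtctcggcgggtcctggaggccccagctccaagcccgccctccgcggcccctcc

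Each window was searched on both strands for the STAT motif TTCNNNGAA, an NF-kB motif made of GGG and TTTCC with any 2 bases between them, and the AP-1 motif TGANTCA. Il6 held the NF-kB letters from -44 to -35 and the AP-1 letters from -249 to -243. Socs3 held the STAT letters from -154 to -146. Over all 32851 promoter windows of the table, 8.30% hold the STAT motif, 1.63% the NF-kB motif and 7.81% the AP-1 motif. Among the other members the AP-1 letters occurred in Lif, Osmr and a window of Il11, and no other match was found. A match describes letters and not a bound site.

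Il6 was the more abundant ligand and was high in pLN. Its level was 205, 276 and 220 RPKM in the pLN libraries of SPF mice, and 84.8, 67.6 and 82.7 in mLN of the same housing. In GF mice, mLN stood at 80.4, 72.6 and 77.9 RPKM. The GF pLN libraries read 67.4, 195 and 168 RPKM. The 6 mLN libraries thus lay close together whatever the housing, all 3 SPF pLN libraries were far above them, and in GF mice replicate 1 of pLN lay below every mLN library while the other pLN libraries lay above. Il6 lies on chromosome 5 from 30013114 to 30019981 (GRCm38).

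On the log2(RPKM + 1) scale, which understates changes of low genes, Il6 was lower in mLN than in pLN of SPF mice by a difference of -1.56 ± 0.28 (SE; limma adjusted p = 3.32e-04). That is a ratio of the mean levels of 2.98. In GF mice the same difference was -0.75 ± 0.28 (limma adjusted p = 0.0447). It varied with the GF pLN libraries kept: without replicate 1 of that group it was -1.22 ± 0.15 (limma adjusted p = 1.60e-05), and without replicate 2 it was -0.46 ± 0.27 (limma adjusted p = 0.213). It was also not below 0.05 without replicate 3 of GF pLN (-0.57), without any of the GF mLN replicates (-0.71 to -0.78), or without replicate 1 or 3 of SPF mLN or of SPF pLN (-0.75 each). The other losses came with changes of processing, among them median-of-ratios rescaling, only the 2 groups compared and pseudocount 0.1. In all, 8 of 21 alternative fits kept it below 0.05, and the sign was the same in the 21.

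The library of GF pLN that was low in Il6 was low in chemokine genes listed for the Il6 and Cxcl1 cluster too. Il33, also on that list, was the highest of its group there, at 163 RPKM against 126 and 148. The paper, however, reports the rise of Il33 along the branch to Ccl19+(Il7+) reticular cells. Cxcl1, a neutrophil-attracting chemokine singled out after its values were seen, was at 395 RPKM in that library and at 753 and 707 in the other replicates. Ccl7, a ligand of CCR2, read 364 against 697 and 663. The same library was not low in Socs3 (330, against 408 and 294) and was the highest of its group in Il6ra, Il6st, Osmr, Lifr and Stat3. Its summed T zone reticular markers (9 genes, among them Ccl21a, whose reads near-identical copies can share) were 14407 RPKM, against 10651 and 13738, and its perivascular markers (10 genes) 793 against 581 and 665. Its markers of CD34+ SCs (11 genes) summed to 1072 RPKM, against 2240 and 1758. The part of these differences in the low Il6 value was not tested.

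Lif, whose product keeps embryonic stem cells undifferentiated through the same gp130 chain, was present at a few RPKM only. The gene lies on chromosome 11 from 4257557 to 4272514 (GRCm38). It was at 4.42, 3.68 and 4.45 RPKM in mLN of SPF mice and at 2.18, 3.37 and 2.70 in mLN of GF mice. In pLN it read 2.04, 4.34 and 3.12 in SPF and 2.81, 4.53 and 3.04 in GF mice. The groups overlapped except for the SPF and GF groups of mLN. No difference passed the threshold: the location difference was 0.35 (95% interval -0.06 to 0.76) in SPF and -0.24 (-0.65 to 0.17) in GF mice. Leaving out replicate 2 of SPF pLN took the first to 0.55 ± 0.18 (limma adjusted p = 0.0347). Per length, Il6 exceeded Lif by 18.4 to 19.2 times in mLN of SPF mice and by 63.5 to 101 times in pLN of the same mice.

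**Figure D1:**
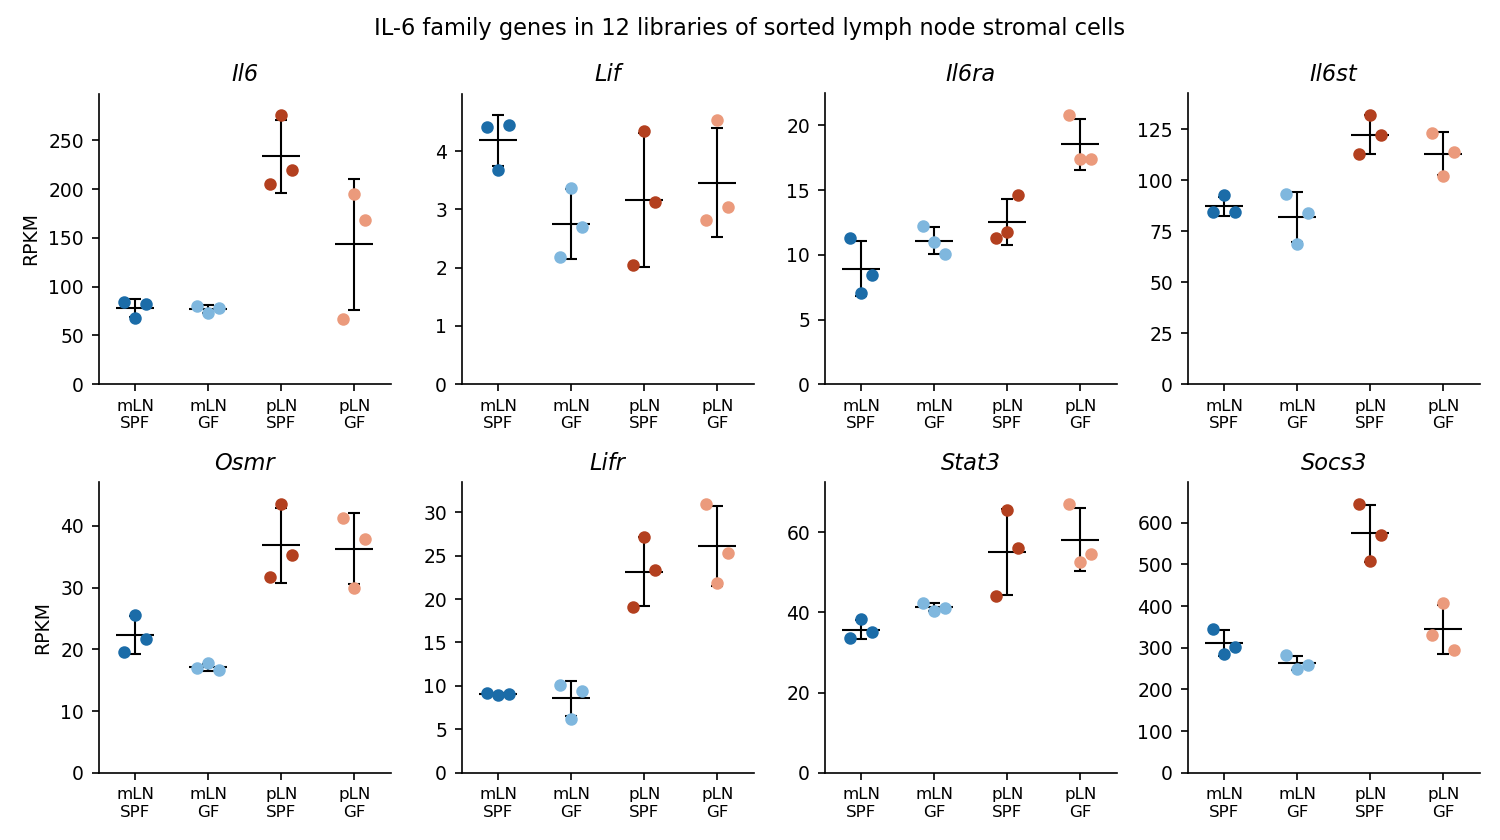
RPKM (y axis, linear, from 0) of the 8 IL-6 family genes in each of the 12 libraries (points), by location and housing (x axis); horizontal bars are group means and whiskers the SD of 3 libraries. Il6ra, Il6st, Osmr, Lifr and Stat3 stand higher in pLN than in mLN on average in both housings, the low point of Il6 in GF pLN is 67.4, and SPF pLN stands apart for Socs3 at 509 to 646.

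All 4 receptor chains were lower in mLN than in pLN in both housings. In GRCm38, Lifr lies on chromosome 15 from 7090614 to 7197489, Osmr on chromosome 15 from 6813577 to 6874969, Il6st on chromosome 13 from 112464070 to 112510086 and Il6ra on chromosome 3 from 89864059 to 89913196. Lifr, which pairs with gp130 to bind leukaemia inhibitory factor, had the largest difference of the chains on the list. It read 9.22, 8.95 and 9.08 RPKM in mLN of SPF mice and 19.1, 27.1 and 23.3 in pLN. In GF mice it was at 10.1, 6.24 and 9.37 RPKM in mLN and at 31.0, 21.9 and 25.3 in pLN. No mLN library reached the lowest pLN library. The differences were -1.25 ± 0.17 in SPF (limma adjusted p = 2.62e-05) and -1.51 ± 0.17 in GF mice (limma adjusted p = 3.22e-06), and both passed the threshold of 2-fold in all 21 alternatives.

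Osmr encodes the oncostatin M receptor, which in the mouse is the chain that oncostatin M prefers. Its levels were 19.6, 25.6 and 21.7 RPKM in SPF mLN and 31.7, 43.6 and 35.2 in SPF pLN. In GF mice they were 16.9, 17.7 and 16.6 RPKM in mLN and 41.2, 29.9 and 37.8 in pLN. Again no mLN library reached a pLN library. The difference was -0.69 ± 0.15 in SPF mice (limma adjusted p = 0.00146) and -1.04 ± 0.15 in GF mice (limma adjusted p = 3.39e-05). Oncostatin M itself is not among the rows.

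Il6st, the shared chain, was the most abundant receptor gene, and its location difference was the smallest of the 4 chains in GF mice and close to that of Il6ra in SPF mice. It lay between 69.0 and 93.3 RPKM over the 6 mLN libraries and between 102 and 132 over the 6 pLN libraries, with no overlap. The differences were -0.48 ± 0.13 in SPF (limma adjusted p = 0.00754) and -0.46 ± 0.13 in GF mice (limma adjusted p = 0.00916), ratios of 1.40 and 1.38. The second was lost without replicate 2 of GF mLN, at -0.35 (limma adjusted p = 0.0593).

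Il6ra, the chain that binds IL-6 and gives a cell its own responsiveness to it, was the scarcer partner. It read 11.3, 7.08 and 8.44 RPKM in SPF mLN, 12.2, 11 and 10.1 in GF mLN, 11.3, 11.8 and 14.6 in SPF pLN and 20.8, 17.4 and 17.4 in GF pLN. GF pLN stood apart from every other library, while the remaining groups lay side by side or overlapped. Il6ra was lower in mLN by -0.69 ± 0.15 in GF mice (limma adjusted p = 0.00191). In SPF mice the difference was -0.47 (limma adjusted p = 0.0267), and it was not below 0.05 without mLN replicate 2 (-0.33, limma adjusted p = 0.129), mLN replicate 3 (-0.44, limma adjusted p = 0.0813) or pLN replicate 3 (-0.36, limma adjusted p = 0.131).

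Per length, Il6st exceeded Il6ra in every library, by 5.87 to 13.1 times. The ratio of Il6st to Lifr was 8.94 to 11 in the 3 GF mLN libraries and 3.96 to 4.67 in the GF pLN libraries. Osmr exceeded Lifr by 1.33 to 2.86 times over the 12 libraries. The mean level of Il6st was above that of 95.5% of the genes of the table, that of Osmr above 83.1%, that of Lifr above 72.6% and that of Il6ra above 65.6%.

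Stat3, the transcription factor that gp130 activates (chromosome 11 from 100885098 to 100939540), was at 33.6, 38.2 and 35.1 RPKM in SPF mLN and at 42.3, 40.4 and 41.1 in GF mLN. The pLN libraries read 44.0, 65.4 and 56.0 in SPF and 67.1, 52.6 and 54.6 in GF mice. Every pLN library exceeded every mLN library. The location difference was -0.60 ± 0.14 in SPF (limma adjusted p = 0.00328) and -0.48 ± 0.14 in GF mice (limma adjusted p = 0.0143), the latter lost without replicate 1 of GF pLN (-0.37, limma adjusted p = 0.0743).

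Socs3, the feedback inhibitor, was the most abundant member and among the most abundant genes of these cells, above 99.0% of the table by mean level. The gene lies on chromosome 11 from 117966079 to 117970047 (GRCm38). It read 646, 509 and 570 RPKM in pLN of SPF mice. The other groups were lower, at 330, 408 and 294 in GF pLN, 346, 285 and 301 in SPF mLN and 282, 248 and 259 in GF mLN. SPF pLN did not overlap any other group, whereas GF pLN overlapped SPF mLN. The location difference was -0.88 ± 0.14 in SPF mice (limma adjusted p = 9.98e-05) and -0.38 ± 0.14 in GF mice (limma adjusted p = 0.0455). The GF difference was below 0.05 in 9 of 21 alternatives, with adjusted p from 0.0217 to 0.198. It was lost without replicate 1 (-0.40) or 2 (-0.25) of GF pLN, without any of the GF mLN replicates (-0.33 to -0.43), and without replicate 3 of SPF mLN or of SPF pLN (-0.38 each).

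Across the list, 7 of 8 members were lower in mLN of SPF mice at a limma adjusted p below 0.05, all but Lif, where 13.8% of the 9764 tested genes were. Il6 and Lifr also passed 2-fold, which 6.41% of tested genes did in that direction. In GF mice the same count was 7 of 8, where 18.4% of all genes were lower, and Lifr and Osmr passed both thresholds, which 6.87% did. None was higher in mLN, against 19.7% of tested genes in SPF and 17.1% in GF mice at the adjusted p alone. The median difference of the 8 members was -0.65 in SPF and -0.59 in GF mice, beside 0.09 and 0.00 over all tested genes. The number below 0.05 fell to 4 of 8 in GF mice without replicate 2 of mLN. The comparisons of GF mice share libraries with those of housing below.

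The libraries of the 2 locations also differed in markers of stromal subsets. The summed T zone reticular markers (9 of 9 genes in the table) lay between 210 and 1066 RPKM in mLN and between 8308 and 14407 in pLN. Perivascular and smooth muscle markers (10 of 10) summed to 33.9 to 136 in mLN and 553 to 793 in pLN, and markers of CD34+ SCs (11 of 11) to 4791 to 6216 and 1072 to 2898. Of 8 mesothelial markers only Wt1 was in the table, at 6.80 to 11.2 and 0.608 to 1.43. Immediate early and heat shock genes (20 of 20), which tissue digestion can induce, summed to 8414 to 9479 and 11179 to 14440. The 4 haematopoietic markers in the table summed to 3.17 to 6.25 and 4.11 to 8.35, with Ptprc and Cd3e not among the rows, and Cd79b at 0 in 1 library. Of 10 endothelial markers, Tek alone exceeded 1.58 RPKM, at 57.8 to 84.8 in mLN and 10.7 to 22.6 in pLN, and Emcn was at 0 in 2 libraries. The part of these markers in the IL-6 family differences was not tested, and in such bulk libraries fewer cells of a type and less RNA per cell cannot be told apart.

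**Figure D2:**
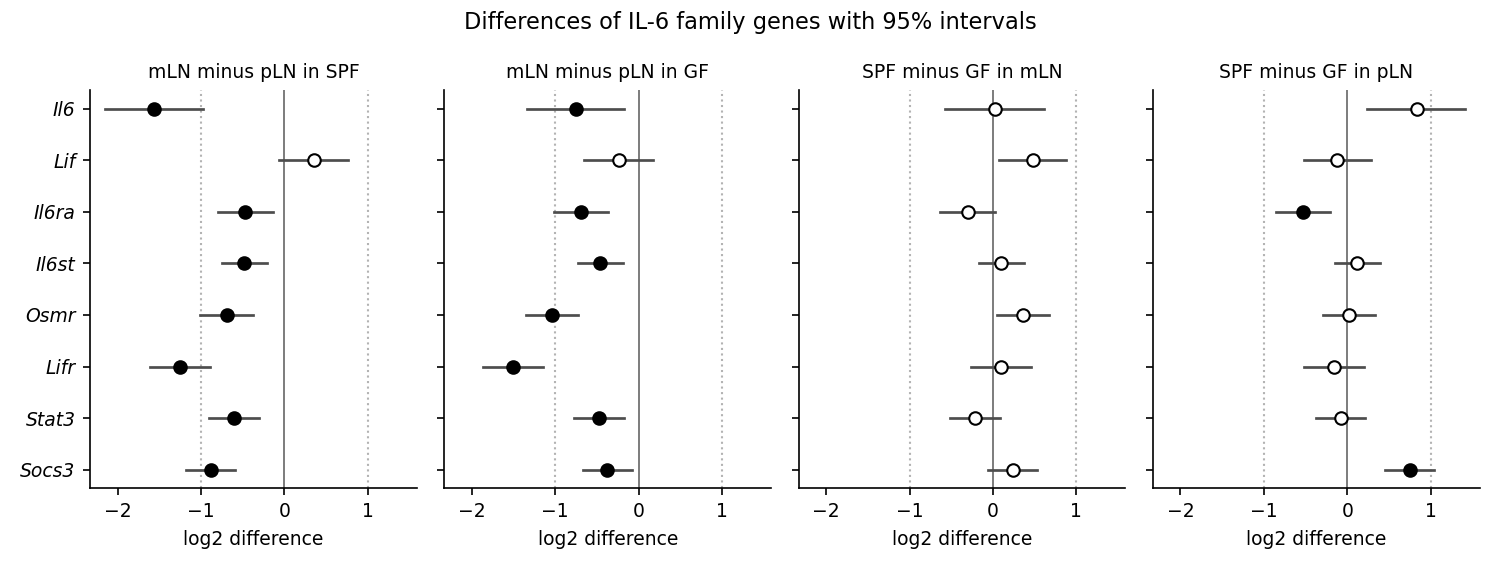
Log2 differences (x axis, on the log2(RPKM + 1) scale) of the 8 members in 4 comparisons (panels), with 95% intervals from limma; filled points have an adjusted p below 0.05 and dotted lines mark 2-fold. In both location panels 7 points are filled and left of 0, in mLN no housing point is filled, and in pLN Il6ra (-0.53) and Socs3 (0.75) are.

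Housing was compared within each location to ask what the presence of microbiota goes with. In mLN no member differed between SPF and GF mice at a limma adjusted p below 0.05, where 2.53% of tested genes were higher and 2.08% lower in SPF mice. At an unadjusted p below 0.05 there were 2 members, Lif (0.48 ± 0.19, adjusted p = 0.213) and Osmr (0.36 ± 0.15, adjusted p = 0.213), both higher in SPF mice. Of the 9764 tested genes 1594 had such an unadjusted p. For Il6 the difference was 0.02, with a 95% interval of -0.57 to 0.61. By voom on recovered reads no member passed either. The median of the 8 members was 0.10, beside 0.01 over all genes.

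In pLN, Socs3 was higher in SPF than in GF mice by 0.75 ± 0.14 (limma adjusted p = 0.00418), a ratio of mean levels of 1.67. It stayed below 0.05 in the 20 alternatives. At this threshold 4.05% of tested genes were higher in SPF pLN. Il6ra was lower in SPF pLN by a difference of -0.53 ± 0.15 (limma adjusted p = 0.0374), as 6.74% of tested genes were. This call held in 11 of 20 alternatives, with adjusted p from 0.0233 to 0.128. It was lost without replicate 1 (-0.45) or 3 (-0.57) of GF pLN, without replicate 1 (-0.46) or 2 (-0.49) of SPF pLN, and without replicate 3 of either mLN group (-0.53 each).

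Il6 itself was higher in all 3 SPF pLN libraries than in any GF pLN library, with a difference of 0.83 ± 0.28 that missed the threshold (limma adjusted p = 0.0691). Without the low GF library, replicate 1, it was 0.35 ± 0.15 (limma adjusted p = 0.184), and without replicate 2 it was 1.11 ± 0.27 (limma adjusted p = 0.0198) and passed 2-fold. Il6st (0.12, 95% interval -0.15 to 0.39), Osmr (0.02, -0.29 to 0.33), Lifr (-0.16, -0.52 to 0.20) and Stat3 (-0.08, -0.38 to 0.21) had intervals that exclude a 2-fold change. The median of the 8 members was -0.03, beside -0.06 over all genes. Between SPF and GF pLN the summed T zone markers were 8308 to 9573 and 10651 to 14407 RPKM, but Tnfsf13b among them had a higher mean in SPF pLN. The immediate early and heat shock genes summed to 12911 to 14440 and 11179 to 12676, with Fos alone at means of 3457 and 3087. Of the heat shock genes, Hspa1a, Hspa8, Dnajb1 and Hsp90aa1 had lower means in SPF than in GF pLN, and Hspa1b and Hspb1 higher. The part of these marker and stress genes in the housing differences was not tested.

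Whether the location difference depended on housing was tested by the interaction. No member passed a limma adjusted p of 0.05, by voom on recovered reads neither, where 0.297% of tested genes did and 0.236% also passed 2-fold. The lowest unadjusted p among members was 0.0197 for Socs3 (-0.51 ± 0.20, adjusted p = 0.419), followed by 0.0456 for Lif (0.59 ± 0.27, adjusted p = 0.500) and 0.0564 for Il6 (-0.81 ± 0.39, adjusted p = 0.533). Without replicate 1 of GF pLN the Il6 value was -0.34. The 95% interval for Il6st was -0.40 to 0.36.

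The order of the 4 groups by mean level differed among members. Il6, Il6st, Osmr and Socs3 were ordered SPF pLN, GF pLN, SPF mLN, GF mLN from high to low. For Lifr the order was GF pLN, SPF pLN, SPF mLN, GF mLN. Stat3 and Il6ra ran GF pLN, SPF pLN, GF mLN, SPF mLN. Lif ran SPF mLN, GF pLN, SPF pLN, GF mLN. Only in Socs3 and Il6ra did the neighbouring groups of pLN differ past the threshold, and in no member did the groups of mLN.

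The genes whose pattern over the 12 libraries was most like that of each member are given as a description, since the libraries share 4 groups. For Il6 these were Ccdc3 (Pearson r = 0.926), Cav1 (0.902) and Arid5a (0.901). For Socs3 they were Gadd45g (0.959), Rad51d (0.950) and Wnt11 (0.944). Lifr resembled Vcam1, Itga6 and Tenm3 (0.990 each), Osmr resembled Nek6 (0.987), Stat3 resembled Lpar1 (0.987), Il6st resembled C3 (0.978) and Il6ra resembled Tsc22d1 (0.956). Lif had no gene above 0.784 (Zfp36l2), out of 9745 compared.

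Other genes of the pathway were taken from lists by role. Of 8 gp130 family receptor chains, 6 were in the table, and all 6 were lower in mLN in both housings at a limma adjusted p below 0.05. Of all tested genes 13.8% were lower in SPF and 18.4% in GF mice. The chains beyond the members were Il11ra1 and Il27ra. Il11ra1, the receptor for interleukin-11, read 23.3, 23.8 and 22.5 RPKM in SPF mLN and 104, 86.5 and 95 in SPF pLN. In GF mice it read 23.1, 19.4 and 24.1 in mLN and 88.6, 76.2 and 75.6 in pLN, so the locations did not overlap. The differences were -1.99 ± 0.12 and -1.81 ± 0.12 (limma adjusted p = 3.52e-09 and 1.12e-08), larger in size than those of any member. The mouse genome holds near-identical copies of Il11ra1, so its value is uncertain. Il27ra, which binds interleukin-27 together with gp130, was at a mean of 1.87 RPKM in SPF mLN and 6.60 in SPF pLN (-1.42 ± 0.16, limma adjusted p = 2.75e-06).

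The kinases and adaptors downstream of gp130 were nearly level. Of 9 genes, 2 were higher and 0 lower in mLN of SPF mice, and 1 was higher and 1 lower in GF mice, with medians of 0.02 and 0.07. None passed 2-fold, where 3.99% and 4.57% of tested genes were higher in mLN past both thresholds. Of 6 STAT genes, 3 were lower and 0 higher in mLN in either housing. The counts of both lists at the adjusted p stand beside 13.8% of tested genes lower and 19.7% higher in SPF mice. In GF mice these shares were 18.4% and 17.1%.

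Of 15 genes known to induce Il6 or to speed the decay of its transcript, 6 were lower and 1 higher in mLN of SPF mice. Of all tested genes 13.8% and 19.7% were. The lower genes include some of both kinds, so these are not counts of inducers alone. In GF mice 4 were lower and 2 higher, near the 18.4% and 17.1% of all genes, and the medians were -0.13 and -0.20. Il1r1, the interleukin-1 receptor, had means of 21.6 RPKM in SPF mLN and 50.5 in SPF pLN (-1.18 ± 0.22, limma adjusted p = 5.91e-04) and a like difference of -1.24 ± 0.22 in GF mice. Its partner chain Il1rap had means of 3.67 and 13.8 RPKM in SPF mice (-1.66 ± 0.18, limma adjusted p = 2.29e-06).

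Of the 6 genes listed for the Il6 and Cxcl1 cluster, 5 were in the table. The list draws on the study's own cells, so it is no independent evidence. It holds Il33, which the paper reports for the branch to Ccl19+(Il7+) reticular cells instead. In either housing 4 of 5, Il33 included, were lower in mLN at a limma adjusted p below 0.05. Of all tested genes 13.8% were lower in SPF and 18.4% in GF mice. Among the 4 were the CCR2 ligands Ccl7 (-2.21 ± 0.24 in SPF mice) and Ccl2 (-1.77 ± 0.18) and the neutrophil chemokine Cxcl2 (-1.08 ± 0.21). Cxcl1 had means of 560 RPKM in SPF mLN and 629 in SPF pLN, and its differences of -0.17 (limma adjusted p = 0.551) in SPF and -0.45 (limma adjusted p = 0.0817) in GF mice did not pass.

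**Figure D3:**
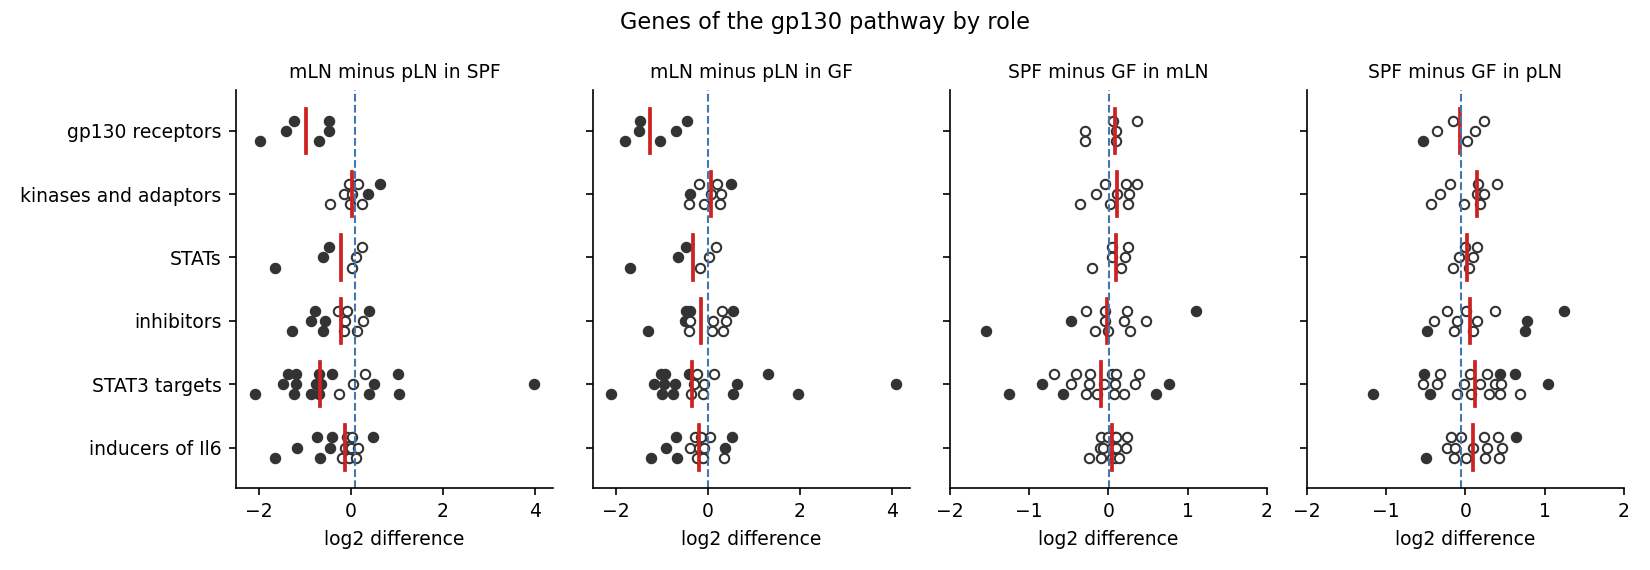
Log2 differences (x axis, log2(RPKM + 1) scale, location panels on a wider range than housing panels) of each tested gene in 6 lists (rows), with filled points at an adjusted p below 0.05, red bars at the list's median and a dashed line at the median of all tested genes. The 6 receptor chains all lie left of 0 in both location panels, with medians of -0.97 and -1.26, while kinases and adaptors centre on 0.02 and 0.07. The row of Il6 inducers also holds genes that speed the decay of its transcript.

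Of 20 known STAT3 target genes tested, 12 were lower and 5 higher in mLN of SPF mice, and 9 were lower and 5 higher in GF mice, with medians of -0.68 and -0.34. These counts stand beside 13.8% of all tested genes lower and 19.7% higher in SPF mice, and 18.4% and 17.1% in GF mice. At the adjusted p alone the share of higher targets was thus near the background. Past both thresholds, 6 were lower and 3 higher in SPF mice, and 4 and 3 in GF mice. Of all tested genes 6.41% were then lower and 3.99% higher in SPF mice, and 6.87% and 4.57% in GF mice. Past both thresholds the share of higher targets, 3 of 20 in either housing, was above the background. The largest negative differences in SPF mice were those of Ccnd1, which encodes cyclin D1 (-2.08), Cebpb, a transcription factor of acute-phase genes (-1.49), the kinase gene Pim1 (-1.38) and Steap4, a metalloreductase (-1.25). The largest positive difference was that of Hp, which encodes the acute-phase protein haptoglobin, at means of 21.2 RPKM in SPF mLN and 0.446 in SPF pLN (3.99 ± 0.23, limma adjusted p = 2.72e-09). In both housings, Tnfrsf12a, the receptor of TWEAK (1.04 in SPF and 1.96 in GF mice), and Lbp, which binds bacterial lipopolysaccharide (1.02 and 1.3), were higher in mLN past both thresholds, and the early response gene Ier3 (-1.19 and -1.18) was lower. Several of these genes have inducers other than STAT3.

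Housing was also followed over the lists. Of 12 inhibitors of JAK-STAT signalling tested, 3 were higher and 1 lower in SPF than in GF pLN, and 1 was higher and 2 lower in mLN. Of the 20 STAT3 targets, 3 were higher and 3 lower in SPF pLN, and 2 higher and 3 lower in SPF mLN. The shares of all tested genes were 4.05% higher and 6.74% lower in pLN, and 2.53% and 2.08% in mLN. Past both thresholds, the inhibitors had 1 higher gene in pLN, and 1 higher and 1 lower gene in mLN, and the targets 1 of each in pLN and 1 lower in mLN. Of all tested genes 0.635% and 0.420% were then higher or lower in pLN, and 0.266% and 0.481% in mLN. Between SPF and GF mLN the summed T zone markers were 210 to 484 and 633 to 1066 RPKM. Of these, only Ccl19, Ccl21a, Clu and Grem1 were lower in SPF mLN at a limma adjusted p below 0.05. Tnfsf13b had the higher mean in SPF mLN (13.8 against 10.9). Markers of CD34+ SCs summed to 5696 to 6216 in SPF and 4791 to 5508 in GF mLN. The part of both marker sets in the housing differences of mLN was not tested. The 3 inhibitors higher in pLN were Socs3, Socs1 and Cish, all of the SOCS family, of which 7 of 8 listed genes were tested. With location, 5 of the 12 were lower and 1 higher in mLN of SPF mice, and 4 lower and 1 higher in GF mice, beside 13.8% and 19.7% of all tested genes in SPF and 18.4% and 17.1% in GF mice. Ptpn1, a phosphatase that acts on JAKs, had the largest of these, with means of 7.95 RPKM in SPF mLN and 20.7 in SPF pLN (-1.28 ± 0.12, limma adjusted p = 7.33e-07), and it was the gene lower in SPF than in GF pLN (-0.48 ± 0.12, limma adjusted p = 0.0244).

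Socs1, which inhibits JAKs and interferon signalling, read 42.6, 32.4 and 42.0 RPKM in SPF mLN and 14.1, 23.4 and 16.1 in GF mLN. In pLN it read 71.0, 46.6 and 58.0 in SPF and 23.3, 28.5 and 20.2 in GF mice. Every SPF library exceeded every GF library of either node. The housing differences were 1.10 ± 0.19 in mLN (limma adjusted p = 0.00327) and 1.24 ± 0.19 in pLN (limma adjusted p = 0.00106), and the interaction was -0.14 ± 0.27.

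Socs2, an inhibitor of growth hormone signalling, went the other way in mLN. It was at 2.24, 2.45 and 2.89 RPKM in SPF mLN and 10.2, 7.81 and 10.1 in GF mLN, a difference of -1.55 ± 0.14 (limma adjusted p = 1.17e-05). In pLN it was at 3.45, 5.36 and 4.46 in SPF and 6.16, 6.30 and 5.85 in GF mice (-0.40 ± 0.14, limma adjusted p = 0.0798). Its location difference was negative in SPF (-0.61) and positive in GF mice (0.54).

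Bcl6, a transcriptional repressor, was the STAT3 target with the largest housing difference. It read 7.15, 3.77 and 5.41 RPKM in SPF mLN against 16.4, 11.2 and 14.8 in GF mLN, and 6.07, 3.73 and 5.87 in SPF pLN against 14.3, 13.0 and 10.9 in GF pLN. The GF libraries were above all SPF libraries. The differences were -1.25 ± 0.20 and -1.16 ± 0.20 (limma adjusted p = 0.00173 and 0.00257). Lbp was higher in SPF pLN (1.04 ± 0.17, limma adjusted p = 0.00145). It was also higher in SPF mLN, short of 2-fold (0.76 ± 0.17, limma adjusted p = 0.0156).

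**Figure D4:**
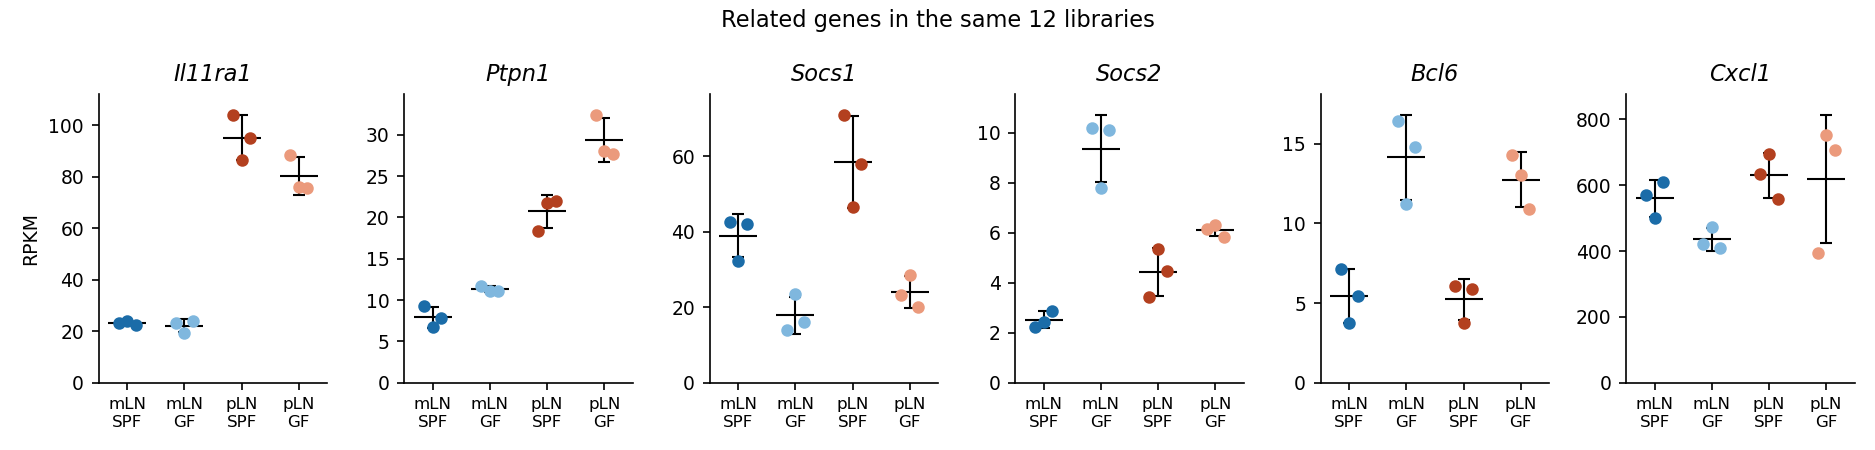
RPKM (y axes, linear, from 0) of 6 related genes in the 12 libraries (points), by location and housing, with group means (bars) and SD of 3 libraries (whiskers). Il11ra1 and Ptpn1 separate by location, Socs1 and Bcl6 by housing, Socs2 is lowest in SPF mLN at 2.24 to 2.89, and Cxcl1 has a low GF pLN library at 395.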

How the data were processed

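The data are 12 RNA-seq libraries made with SMART-Seq v4 and Nextera XT, which keep no record of the strand, so antisense transcripts cannot be separated from a gene's own. Per the methods and the submitters' processing notes, the authors aligned single reads with TopHat2 1.2.0 to GRCm38 (mm10), counted genes with HTSeq 0.12.4 and computed the deposited RPKM from the counts. The deposited log2 fold changes and deposited p-values are the authors' DESeq2 results and were not used. Groups follow the sample titles, because the labels' tissue field calls pLN mesenteric as well as skin-draining. The file spells the SPF pLN columns SFP.

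Of 10253 genes, 9764 had at least 1 RPKM in at least 3 libraries and were tested, and 489 did not. Spreadsheet dates replaced 18 symbols. On log2(RPKM + 1), limma 3.58.1 (R 4.3.3) was used with 4 group means over all 12 libraries and 15.1 moderated degrees of freedom. P-values were adjusted by Benjamini-Hochberg over all tested genes. A gene passed both thresholds at an adjusted p below 0.05 and at least 2-fold. Dividing out the step of a single read gave whole numbers, within 0.01 of a read, for 99.9% of genes. These served for depth and for a voom alternative. The fit was tested on simulated data with this design. Library totals and precision are given with the results. Python 3.11.15, pandas 2.3.3, SciPy 1.17.1 and matplotlib 3.10.9 did the rest.

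All members are described. From each other list at most the 5 largest differences past both thresholds per comparison are named, and the 3 genes of most similar pattern per member. Exceptions are Cxcl1 and Cish, chosen after their values were seen, and a gene that the rule names is not reported here. The members and lists were chosen with earlier results of these data known. The alternatives were another pseudocount (0.1), no filter, a mean of at least 5 RPKM, median-of-ratios rescaling, voom, a replicate block, only the 2 groups compared, trended robust moderation, and leaving out each library. Deviations from the group means of the mLN and pLN libraries of a number correlated at 0.182 to 0.456 over the 3 SPF pairs. Over the 3 GF pairs they correlated at 0.0792 to 0.228. Libraries of unlike number reached 0.303 in SPF mice (mLN replicate 1 with pLN replicate 3). In GF mice they reached 0.0291 (mLN replicate 2 with pLN replicate 3). Within its housing, each GF mLN library correlated best with the pLN library of its own number, but of SPF mLN only replicate 2 did. With 3 pairs a housing, these values do not settle whether the titles' numbers pair the nodes. A replicate block within housing was added after seeing the data. Positions and promoters come from GENCODE M21 and RefSeq on GRCm38, and all 9 members matched by symbol.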

Additional observations from a re-analysis of the deposited data

Results flagged for a closer look

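Socs2 was the inhibitor of JAK-STAT signalling whose location difference differed between SPF and GF mice by the test of the interaction itself, at -1.15 ± 0.20 (limma adjusted p = 0.0209). The mean was 2.53 RPKM in SPF mLN and 9.36 in GF mLN, and 4.42 and 6.10 in pLN. The call held in 14 of 20 alternatives. It was not below 0.05 without replicate 1 (-1.09, limma adjusted p = 0.0692) or 3 (-1.09, 0.0903) of GF mLN, replicate 1 of SPF mLN (-1.09, 0.0694), replicate 1 (-1.15, 0.0524) or 3 (-1.12, 0.0805) of GF pLN, or replicate 3 of SPF pLN (-1.13, 0.0686).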

How the results depend on the processing

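Of 1514 alternative values of named genes, 1466 stayed on their side of the threshold, 46 lost and 2 gained a call, and none reversed with a call. The number of members past both thresholds was 2 in each location comparison under every alternative. With leave-one-out, members below 0.05 numbered 4 to 7 for location in GF mice and 1 to 3 for housing in pLN, members past both thresholds for housing in pLN 0 to 1, and all genes past both thresholds for the interaction 13 to 36, against 23. For housing in pLN only Socs3 (1 member) was below 0.05 with rescaling, with only the 2 groups compared and with pseudocount 0.1. Housing calls over all genes rose from 73 to 147 in mLN and from 103 to 172 in pLN with pseudocount 0.1, and to 125 and 171 with voom on recovered reads. Rescaling moved the share of higher calls in SPF pLN from 60.2% of 103 to 71.8% of 110. It also took the median location difference of all genes in SPF mice from 0.095 to 0.014.

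Across all pairs of groups, 3 of 12 libraries correlated best with their own number, and same-numbered libraries of different housing correlated at -0.341 to 0.130, so the numbers do not pair housings. With the replicate block, 1016 and 1118 genes passed both thresholds for location in SPF and GF mice, 73 and 103 for housing in mLN and pLN, and 27 for the interaction, and the GF location difference of Socs3 (-0.38) had an adjusted p of 0.0501 with limma. A block of the mLN and pLN libraries of a number within a housing, added after seeing the data, gave 1016 and 1119 genes for location in SPF and GF mice and 43 for the interaction, against 23, and changed no call of a member. Depth limits Lif most, and 3 libraries a group limit every call near the threshold.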
